A study of Triticum aestivum with 3 samples.

Results

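Rht-1 is the wheat gene for DELLA proteins, and hexaploid wheat carries it as 3 homoeologs, Rht-D1, Rht-B1 and Rht-A1, with one copy on each subgenome. They were taken here by their identifiers, TraesCS4D02G040400 on chromosome 4D, TraesCS4B02G043100 on chromosome 4B and TraesCS4A02G271000 on chromosome 4A, and all 3 were among the 165276 genes quantified. The samples were shoots of wild-type Chinese Spring seedlings, the cultivar of the reference genome, with no treatment, and 3 bioreplicates formed a single group. The seedlings had spent 2 days at 4 °C in the dark and then grew on plates under long days at 18 °C. The labels name them both as 12 and as 14 days old. Poly(A) RNA from 180 mg of shoot tissue was sequenced. With one condition, the comparisons below are between homoeologs inside each library and between the libraries.

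DELLA proteins are nuclear repressors of growth. When gibberellin binds its receptor GID1, the receptor holds the DELLA protein through its N-terminal region and the protein is marked for destruction, which releases stem and leaf elongation. The semi-dwarf alleles Rht-B1b and Rht-D1b, on which the short wheats of the Green Revolution rest, give products that escape this removal. Chinese Spring is a tall cultivar with the wild-type forms of both genes. A transcript level says how much mRNA was present and not how much DELLA protein was left after gibberellin signalling.

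All 3 homoeologs were transcribed in the shoots, Rht-B1 and Rht-A1 at similar levels and Rht-D1 at 5.30-fold below Rht-B1 and 4.87-fold below Rht-A1 on average. Rht-D1 was at 2.44, 2.61 and 2.30 TPM in replicates 1, 2 and 3, where TPM is a level already divided by effective transcript length and relative to the total of its library. Rht-B1, the copy on the B subgenome, was at 13.8, 11.9 and 13.3 TPM in the same libraries. Rht-A1, the copy on the A subgenome, was at 12.9, 12.5 and 10.5 TPM. The values of Rht-D1 did not overlap with those of the other copies, whereas the ranges of Rht-B1 and Rht-A1 overlapped. The means were 2.45 ± 0.154 TPM for Rht-D1, 13.0 ± 0.985 TPM for Rht-B1 and 12.0 ± 1.30 TPM for Rht-A1 (SD, n = 3).

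**Figure D1:**
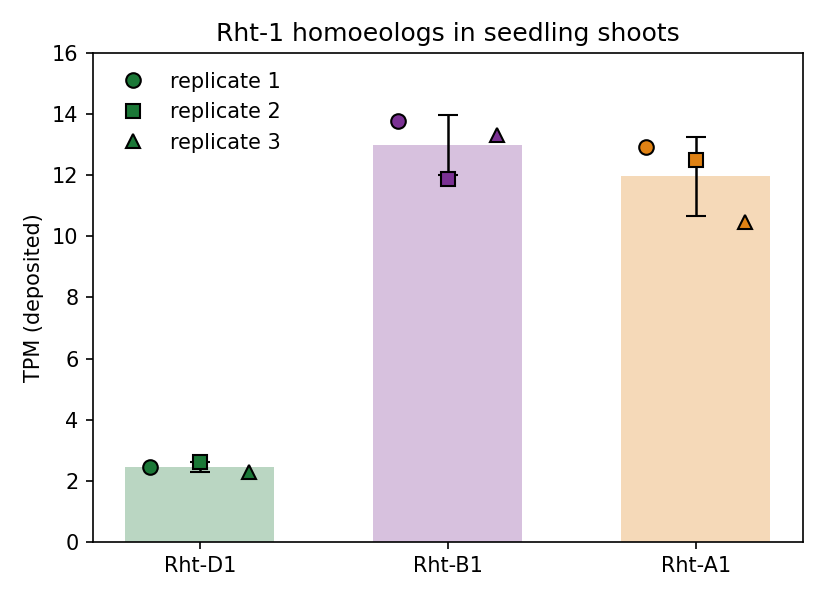
TPM of the 3 Rht-1 homoeologs (vertical axis) in shoots, with points for replicates 1 to 3, bars for the mean and error bars for the SD. The 3 points of Rht-D1 sit between 2.30 and 2.61 TPM, while those of Rht-B1 and Rht-A1 lie between 10.5 and 13.8 TPM and overlap.

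Within libraries, Rht-D1 was lower than Rht-A1 by a log2 ratio of -2.28 ± 0.109 (SD, n = 3), with Rht-A1 5.29, 4.79 and 4.55 times as high as Rht-D1 in replicates 1, 2 and 3. Against Rht-B1 the log2 ratio of Rht-D1 was -2.40 ± 0.190 (SD, n = 3), with Rht-B1 5.64, 4.55 and 5.78 times as high. The sign was the same in 3 of 3 libraries for both pairs. The exact two-sided sign-flip permutation test gave p = 0.25 for each (0.375 after Benjamini-Hochberg adjustment over the 3 pairs compared), and 0.25 is the smallest value that 3 libraries allow. The distance between Rht-D1 and either copy was thus many times the spread between replicates, although this exact test cannot pass a threshold of 0.05 with 3 libraries.

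Rht-B1 and Rht-A1 did not differ beyond the spread between replicates. The log2 ratio of Rht-B1 to Rht-A1 was 0.09, -0.07 and 0.35 in replicates 1, 2 and 3, with a mean of 0.12 ± 0.210 (SD, n = 3; exact sign-flip permutation test, p = 0.5, adjusted 0.5). Counting error alone gave 95% intervals of 0.01 to 0.18 in replicate 1, -0.17 to 0.02 in replicate 2 and 0.25 to 0.44 in replicate 3. The interval lay just above 0 in replicate 1, held 0 in replicate 2 and lay well above 0 in replicate 3, and without replicate 3 the mean log2 ratio was 0.01.

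The estimated counts behind these levels were 328, 335 and 291 for Rht-D1, 2342, 1932 and 2130 for Rht-B1, and 1988, 1840 and 1519 for Rht-A1. Estimated counts are the reads that the quantification gave to a transcript before any division by length. In the libraries 3 such counts, taken as a guide to the limit of detection, were worth at most 0.0237 TPM for Rht-D1 and less for the other copies, so that none of the homoeologs was near this limit. All 9 counts of the homoeologs were fractional (more than 0.01 from a whole number), as were 71.5% of the transcript values above 0, since reads compatible with several transcripts were divided between them. The summed counts of the 3 homoeologs were also fractional, in 3 of 3 libraries, so the division was not only among the 3. How far reads of one homoeolog were credited to another, or shared with other genes, was not tested.

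Taking the 3 homoeologs together, Rht-D1 supplied 7.05%, 8.16% and 7.39% of the estimated counts in replicates 1, 2 and 3. Its exact (Clopper-Pearson) 95% intervals, which cover counting error only, ran from 6.32 to 7.81%, from 7.34 to 9.04% and from 6.59 to 8.25%, and all overlapped. Rht-B1 supplied 50.3%, 47.0% and 54.1%, with intervals of 48.8 to 51.7%, 45.5 to 48.6% and 52.5 to 55.6% that did not overlap with each other. Rht-A1 supplied 42.7%, 44.8% and 38.6%, with intervals of 41.3 to 44.1%, 43.3 to 46.3% and 37.0 to 40.1%. In replicate 3 the balance between Rht-B1 and Rht-A1 thus lay further towards Rht-B1 than in the other libraries, by more than counting error. Between replicates 1 and 2 the intervals of Rht-A1 overlapped. How often other genes of like level move by more than counting error was not tested. On the TPM scale, which corrects for length, the shares were 8.96% ± 0.653 for Rht-D1, 47.4% ± 3.50 for Rht-B1 and 43.6% ± 3.13 for Rht-A1 (SD, n = 3).

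**Figure D2:**
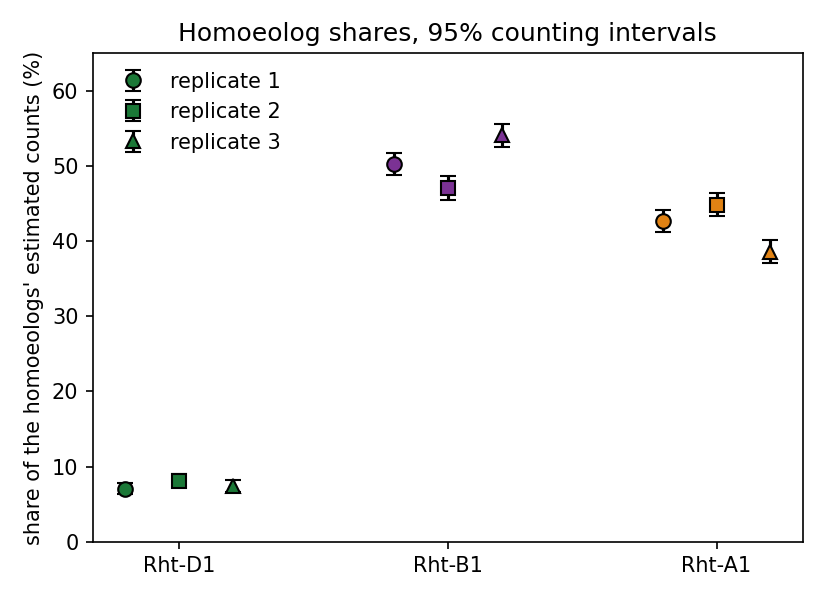
Share of each homoeolog in the summed estimated counts of the 3 (vertical axis, percent), by replicate, with exact 95% intervals for counting error. Rht-D1 stays between 7.05 and 8.16%, and in replicate 3 Rht-B1 is highest at 54.1% and Rht-A1 lowest at 38.6%.

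The share of Rht-D1 in the TPM of the homoeologs was below the share that its subgenome had of summed TPM. The shares of Rht-B1 and Rht-A1 were above those of their subgenomes. A subgenome share is a sum over many genes in which the highest weigh most, so it is a measure unlike a share among 3 homoeologs. High-confidence genes, the better supported class of the annotation and the class of all 3 homoeologs, held on the D subgenome 34.8% ± 0.411 of their summed TPM, on the B subgenome 40.8% ± 1.63 and on the A subgenome 24.4% ± 1.32 (SD, n = 3). On the group 4 chromosomes alone, 4D held 31.8% ± 0.356, 4B 31.6% ± 0.431 and 4A 36.6% ± 0.267. The median level of an expressed high-confidence gene was 1.80 TPM on 4D, 1.50 TPM on 4B and 1.42 TPM on 4A, so that the typical gene of 4D was no lower than those of the other chromosomes of the group.

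The transcript models of the homoeologs differed in a way that touches the comparison. Each gene had 1 annotated transcript, of 1872 bases for Rht-D1, 2323 bases for Rht-B1 and 2120 bases for Rht-A1. The model of Rht-D1 was thus 451 bases shorter than that of Rht-B1 and 248 bases shorter than that of Rht-A1. Its length is a multiple of 3 (624 codons), as in a model that holds coding sequence only, while the lengths of Rht-B1 and Rht-A1 are not. A model with untranslated sequence can also have such a length, so the length alone does not show what the model holds. Among 17430 single-transcript high-confidence genes with models of 1700 to 2500 bases, 43.9% had a length that is a multiple of 3, with a median of 0.711 TPM where expressed, against 1.12 TPM for the others. The part of the model in the low level of Rht-D1 was not tested. Counted with no division by length, the log2 ratio of Rht-D1 was -2.48 to Rht-A1 and -2.74 to Rht-B1, in the same order as on the TPM scale.

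Among all genes listed, each homoeolog was expressed by the rule of the study, a median above 0 TPM over the replicates. So were 61.3% of all genes listed and 67.3% of the high-confidence genes. The annotation described in the paper kept low-confidence genes only where they overlapped a peak of a histone mark. It also left out genes on unanchored scaffolds, so shares and ranks over all genes refer to a selected list. All 3 homoeologs reached at least 1 TPM in every library, against 31.6% of the high-confidence genes. Rht-B1 and Rht-A1 reached at least 10 TPM in every library, a level chosen after their values were seen, against 6.25% of the high-confidence genes. Rht-D1 stood at percentile 66.0 of the 101320 expressed genes, Rht-B1 at 91.7 and Rht-A1 at 91.1. In single libraries, ranked among the genes above 0, Rht-D1 was at percentile 65.5, 65.7 and 71.7 in replicates 1, 2 and 3. Rht-B1 was at 91.8, 89.9 and 94.0, and Rht-A1 at 91.2, 90.5 and 92.4.

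Ranked with expressed high-confidence genes of its own chromosome, Rht-D1 was at percentile 56.0 of 2587 genes on 4D, Rht-B1 at 88.9 of 2777 genes on 4B and Rht-A1 at 89.6 of 3202 genes on 4A. Ranked with genes whose longest transcript was within 10% of its own in length, Rht-D1 was at 62.2, Rht-B1 at 92.5 and Rht-A1 at 91.9. Rht-D1 was accordingly a gene of middling level in each of these sets, and the other copies were close to the top of each.

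**Figure D3:**
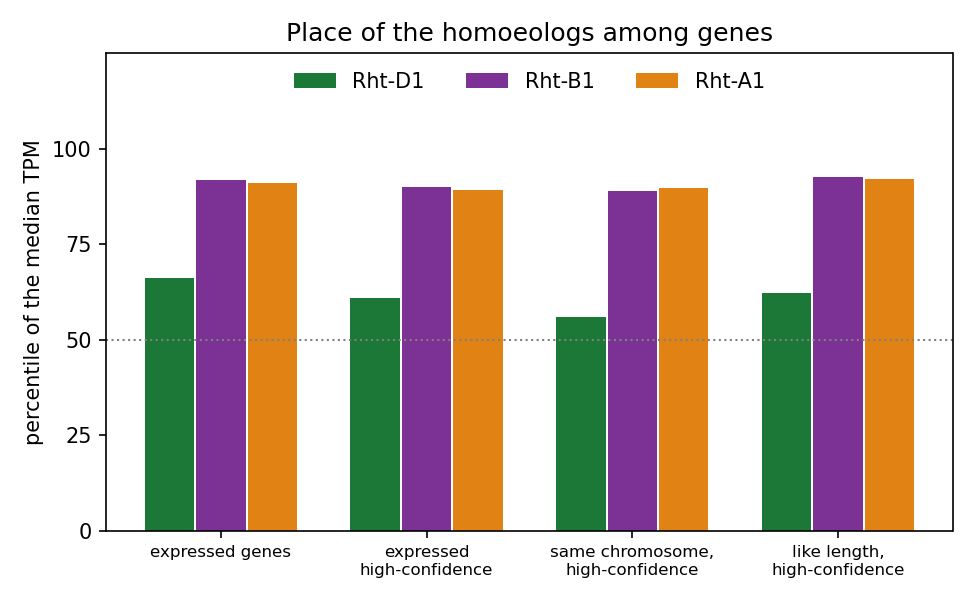
Percentile of each homoeolog's median TPM (vertical axis) among 4 sets of expressed genes, with a dotted line at 50. Rht-D1 lies between percentiles 56.0 and 66.0, Rht-B1 between 88.9 and 92.5 and Rht-A1 between 89.2 and 91.9.

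The libraries differed in scale, and this bears on how steady the homoeologs were. The estimated counts summed to between 67470696 and 76337649 per library. The 10 highest genes held 26.5% of the TPM in replicate 3, against 19.6% in replicate 1 and 19.2% in replicate 2. Over the 91153 genes above 0 in every library, the median gene lay at a log2 level of 0.16, 0.26 and -0.42 in replicates 1, 2 and 3 relative to its own mean over the libraries. In deposited TPM, Rht-D1 and Rht-A1 were lowest in replicate 3, as were 70.9% of those genes, and Rht-B1 was lowest in replicate 2.

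Relative to the median gene, replicate 3 changed its place among the libraries. Divided by size factors that bring the median gene of the libraries to one level, Rht-D1 was at 2.18, 2.19 and 3.08, Rht-B1 at 12.3, 9.95 and 17.8, and Rht-A1 at 11.5, 10.5 and 14.0 scaled TPM in replicates 1, 2 and 3. All 3 homoeologs were then highest in replicate 3, as were 40.6% of the genes above 0 in every library. Replicate 1 stayed above replicate 2 for Rht-B1 and Rht-A1 on either scale. The ratios between homoeologs are taken inside a library and are the same under either scale.

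**Figure D4:**
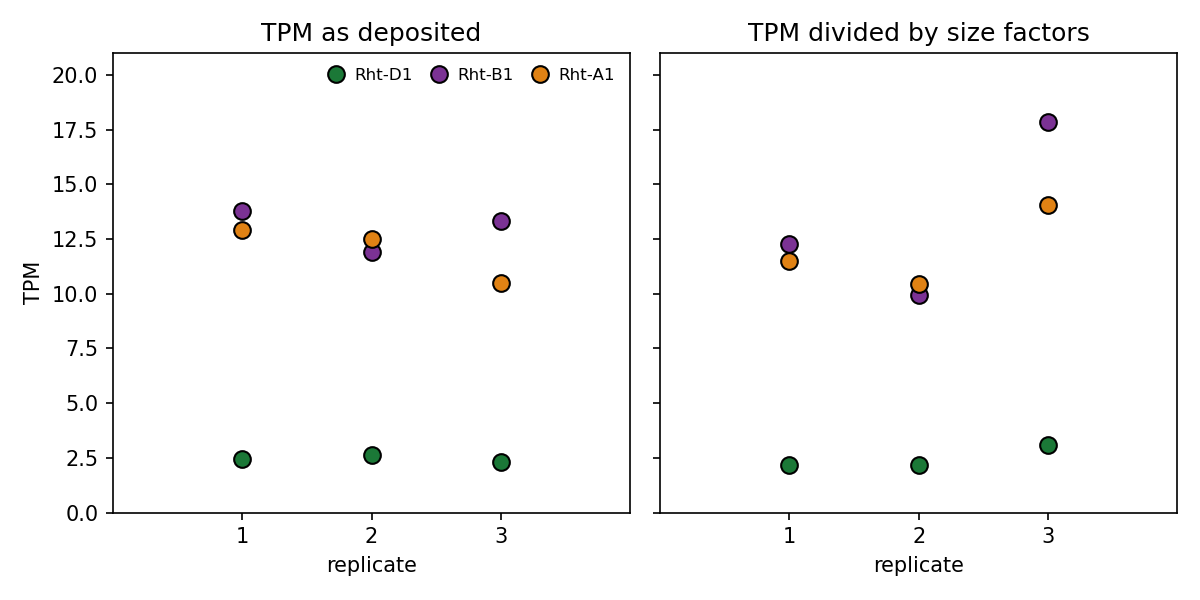
TPM of the homoeologs in replicates 1 to 3 as deposited (left) and after division by size factors (right), on the same vertical axis. Replicate 3 is lowest for Rht-D1 and Rht-A1 on the left, at 2.30 and 10.5 TPM, and highest for all 3 homoeologs on the right.

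In deposited TPM the coefficient of variation over the replicates was 6.30% for Rht-D1, 7.58% for Rht-B1 and 10.9% for Rht-A1. Each was low beside the 1000 expressed genes nearest in median TPM, whose median coefficients were 30.0%, 26.0% and 25.7% around Rht-D1, Rht-B1 and Rht-A1, which stood at percentiles 2.40, 5.70 and 11.2 of these genes. After division by size factors the coefficients were 20.9% for Rht-D1, 30.3% for Rht-B1 and 15.3% for Rht-A1, at percentiles 62.5, 85.7 and 56.8 of the same genes. The low spread of the homoeologs in deposited TPM was therefore not kept after division by size factors. Their summed level was 29.1, 27.0 and 26.1 TPM in replicates 1, 2 and 3 (27.4 ± 1.55, SD, n = 3), and 26.0, 22.6 and 35.0 when scaled to the median gene.

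By the numbers of the gene identifiers, Rht-D1 was gene 399 of 3579 high-confidence genes on 4D and Rht-B1 gene 424 of 3869 on 4B, both close to the start of the chromosome. Rht-A1 was gene 2618 of 4861 on 4A, near its middle. The short-arm place of Rht-D1 and Rht-B1 and the long-arm place of Rht-A1 are a known outcome of the rearrangement of wheat chromosome 4A. Of the 20 nearest high-confidence genes by identifier, 10 on each side, 16 were expressed around Rht-D1, 18 around Rht-B1 and 18 around Rht-A1. Over all 20 neighbours, those not expressed included, the median levels were 0.699, 1.40 and 2.18 TPM around Rht-D1, Rht-B1 and Rht-A1. These medians depend on how many neighbours were not expressed, and do not rank the levels of the expressed neighbours. Rht-D1 was exceeded by 9 of its 20 neighbours, Rht-B1 by 3 and Rht-A1 by 2.

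The genes directly beside Rht-D1 were TraesCS4D02G040300, with 3.30 ± 0.343 TPM, and TraesCS4D02G040500, listed at 0 in all 3 libraries. Beside Rht-B1 were TraesCS4B02G043000, with 2.52 ± 0.464 TPM, and TraesCS4B02G043200, with 5.54 ± 1.71 TPM. Beside Rht-A1 were TraesCS4A02G270900, with 8.06 ± 2.41 TPM, and TraesCS4A02G271100, with 3.71 ± 0.914 TPM (SD, n = 3). Rht-B1 and Rht-A1 were thus higher than both of their direct neighbours, and Rht-D1 was between its own. No function is given for these identifiers in the sources used here.

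**Figure D5:**
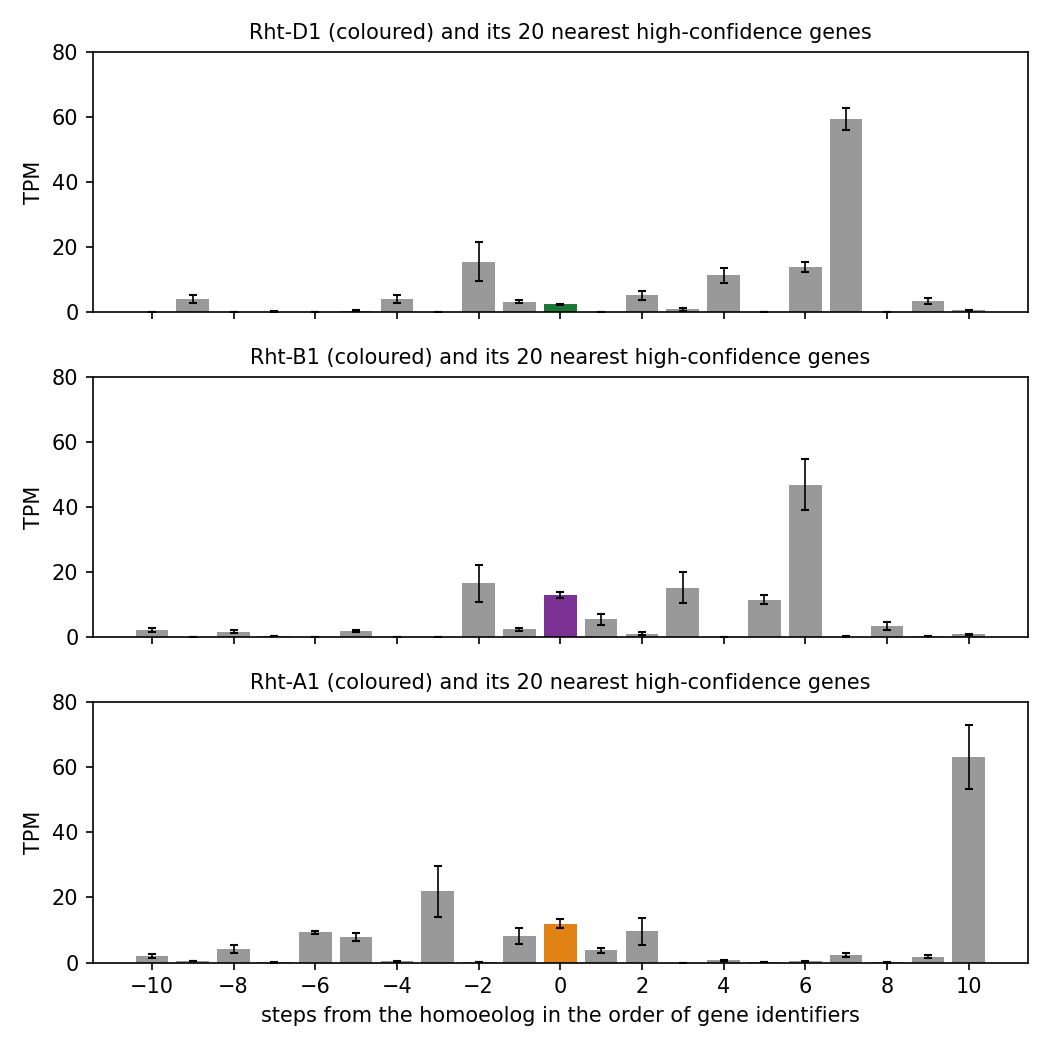
Mean TPM (vertical axis, error bars SD, n = 3) of each homoeolog, coloured, and of the 10 high-confidence genes on either side by identifier order (horizontal axis, steps). Rht-D1 at 2.45 TPM stands below 9 of its neighbours by median TPM, Rht-B1 at 13.0 TPM below 3 and Rht-A1 at 12.0 TPM below 2.

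The genes with the values most like each homoeolog were found by the distance of log2(TPM + 1) over the 3 libraries. The search was among high-confidence genes, with the 3 homoeologs left out beforehand. They were TraesCS4A02G086600, TraesCS3B02G441700 and TraesCS7B02G021400 for Rht-D1, at distances of 0.0183, 0.0248 and 0.0401. For Rht-B1 they were TraesCS7D02G239200, TraesCS4D02G050100 and TraesCS5D02G218300, at distances of 0.0596 to 0.0685. For Rht-A1 they were TraesCS1D02G145100, TraesCS2D02G327100 and TraesCS4B02G174900, at distances of 0.0204 to 0.0275. By the same distance, Rht-B1 lay 0.337 from Rht-A1, and Rht-D1 lay 3.30 from Rht-A1 and 3.50 from Rht-B1. With 3 libraries of 1 condition, likeness here means the same level in the same libraries and nothing on control or function.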

How the data were processed

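Shoot RNA of 3 bioreplicates was sequenced as directional poly(A) libraries. Reads were trimmed with Trimmomatic 0.36 (submitters' processing notes) and the authors quantified transcripts with kallisto, whose version is not given in the sources used here, with gene models taken from IWGSC RefSeq v1.1 as target. The authors deposited, per transcript and library, an estimated count (not normalized) and a TPM value (estimated counts per effective length, scaled to a fixed library total). The deposited tables also give transcript length and effective length. The homoeologs and all lists were chosen with earlier results of these data known.

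TPM and estimated counts were summed over the transcripts of each gene. A low-confidence gene on 4A that shares the number of Rht-A1 is a separate identifier and was not counted with it. Log2 ratios of TPM were taken within libraries with no pseudocount and tested with the exact sign-flip permutation test. Binomial intervals used rounded estimated counts and a level of 95%. Size factors were medians of ratios over genes above 0 in every library. Named genes are the homoeologs, for each the 3 most alike high-confidence genes outside the homoeologs, and its direct neighbours by identifier. The functions were tested on simulated counts. The reference table at hand, of assembly IWGSC CS RefSeq v2.1, pairs 0 of its 155467 genes with the identifiers used here. In it 1 gene has Rht-A1, Rht-B1, Rht-D1 or DELLA as a synonym, and it was not matched to a homoeolog here. No gibberellin pathway list, shoot marker check, coordinates or sequences are therefore given. Alternatives were other pseudocounts, length corrections, scalings, definitions of expressed genes and the omission of each replicate. The labels call the samples bioreplicates but do not say whether they are separate plantings, so the spread is that between these samples. The software was scipy 1.17.1, pandas 2.3.3 and numpy 2.4.6 under Python 3.11.15, with figures drawn in matplotlib 3.10.9.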

Additional observations from a re-analysis of the deposited data

How the results depend on the processing

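The log2 ratios between homoeologs kept their direction in all 27 alternatives run for them, other pseudocounts and length corrections included. For both ratios of Rht-D1 no pseudocount and no omission could have reversed the sign, which was the same in all 3 libraries. The model of Rht-D1 is also the shortest, so leaving out the division by length could only lower these ratios. For Rht-B1 to Rht-A1 the mean was 0.12 ± 0.210 (SD, n = 3), within the spread between replicates. Its kept direction therefore says little. The p-values of the log2 ratios say nothing on robustness, since neither the paired nor the unpaired exact test can pass 0.05 with 3 libraries or fewer. The size of the Rht-D1 ratios moved by more than 1 SD with a pseudocount of 1 TPM (-1.91 for Rht-D1 to Rht-A1 and -2.02 for Rht-D1 to Rht-B1) and with no division by length (-2.48 and -2.74). Leaving out each replicate gave -2.33 to -2.22 for Rht-D1 to Rht-A1, -2.51 to -2.34 for Rht-D1 to Rht-B1 and 0.01 to 0.22 for Rht-B1 to Rht-A1. Rescaling TPM over high-confidence genes raised the means to 2.83 (Rht-D1), 15.0 (Rht-B1), 13.8 (Rht-A1) and 31.7 TPM (sum), since it removes the low-confidence genes from the total. As a share of estimated counts Rht-D1 had 7.53%. Of the percentiles, a cut at 0.1 TPM gave 57.6 for Rht-D1 and 88.9 for Rht-A1. A cut at 1 TPM gave 31.1 for Rht-D1, 83.1 for Rht-B1 and 81.9 for Rht-A1. A cut at 3 estimated counts gave 61.3 for Rht-D1 and 89.8 for Rht-A1, and high-confidence genes alone gave 60.9 and 89.2. With no filter they were 79.1, 94.9 and 94.5 for Rht-D1, Rht-B1 and Rht-A1. These settings change which genes are ranked. Without a replicate the percentiles were 67.6 to 70.4 for Rht-D1, 91.5 to 93.4 for Rht-B1 and 91.4 to 92.3 for Rht-A1. The coefficients of variation were examined under size factors and without each replicate after seeing the data. With size factors they were 20.9% for Rht-D1, 30.3% for Rht-B1 and 15.3% for Rht-A1, and without a replicate 4.18 to 8.88% for Rht-D1, 2.39 to 10.4% for Rht-B1 and 2.28 to 14.7% for Rht-A1. The lowest came without replicate 2 for Rht-D1 and Rht-B1 and without replicate 3 for Rht-A1. With 3 libraries the exact sign-flip test cannot pass 0.05, and how far reads were shared between the copies was not tested.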

Other observations

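The order of identifiers after Rht-D1 and after Rht-B1 allowed the neighbourhoods to be set side by side. TraesCS4D02G040500, a model of 249 bases listed at 0, stands between Rht-D1 and the following genes, and with that step skipped the next 9 genes of both chromosomes were compared in order. This alignment was chosen after the values were seen, and no source used here says that the genes set side by side are homoeologs. Their log2 ratios, 4D gene over 4B gene, ran from -1.08 to 0.57 with a median of 0.02, and 4 of the 9 were below 0. The lowest mean, -1.08 ± 2.17 (SD, n = 3), was that of TraesCS4D02G041300 over TraesCS4B02G043800, which rests on levels of 0.0777 and 0.187 TPM and varied widely between libraries. Rht-D1 over Rht-B1 was at -2.40 ± 0.190. Among these 4D and 4B genes the highest in TPM was TraesCS4D02G041200, with 59.3 ± 3.35 TPM and a model of 1038 bases. It was set beside TraesCS4B02G043700, with 46.9 ± 7.88 TPM and 1092 bases. TraesCS4D02G041400 at 3.53 ± 0.952 TPM stood beside TraesCS4B02G043900 at 3.58 ± 1.30 TPM (SD, n = 3). The genes before Rht-A1, taken in reversed order, gave log2 ratios to the same 4B genes of -3.56 to 1.02 with a median of 0.18, over the 8 positions above 0 in every library. Of these 8, 3 were below 0. The lowest rests on levels of 0.0955 and 1.16 TPM. TraesCS4A02G270400, at 9.34 ± 0.475 TPM, was at -2.31 ± 0.322 (SD, n = 3) over TraesCS4B02G043700, a ratio of a size like that of Rht-D1 over Rht-B1. Whether Rht-D1 stands apart from its surroundings was not tested.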
